A study of Mus musculus with 8 samples.

Results

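The 6 genes described here serve the uptake, synthesis and control of organic osmolytes and of urea in the renal medulla: the myo-inositol carrier Slc5a3, the betaine carrier Slc6a12, the taurine carrier Slc6a6, the aldose reductase gene Akr1b3, the transcription factor gene Nfat5 and the urea transporter gene Slc14a2. They were taken by gene name from the array annotation, as all non-control probes that carry 1 of these names. This gave 18 of 56605 non-control probes and 6 of 37325 gene names. The list was selected on a measured value, the median difference of such genes between the low-dose and the control kidney, so its values in that comparison are a description and support nothing else.

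Cells of the renal medulla live in fluid made hypertonic by salt and urea, and balance it by holding compatible organic solutes such as myo-inositol, betaine, taurine and sorbitol. Nfat5, also called the tonicity enhancer binding protein, is the transcription factor through which hypertonicity raises the genes for these carriers and for aldose reductase, which makes sorbitol from glucose. Slc14a2 encodes urea transporters of the collecting duct and the thin descending limb that keep urea in the medulla.

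RNA from small tissue pieces of male mice was hybridised to 8 one-colour arrays, 1 array in each of 8 groups. Control mice drank distilled water, low-dose mice drank water with 100 mg/L lead acetate and high-dose mice drank water with 1000 mg/L lead acetate, each for 3 weeks. Kidney and brain were each measured in control, low-dose and high-dose mice, and liver in control and high-dose mice. Strain, age and the number of mice behind each RNA are not given in the sources used here, and nothing says that the kidney pieces held the same share of cortex, medulla and papilla.

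A level is the log2 of a probe's processed signal over the 75th percentile of its array, so that 0 marks a probe as bright as that percentile, and levels are compared only within 1 probe. The array error is the scanner software's own spot error, carried to the log2 difference of the arrays compared. Across the 8 arrays 53.4% to 67.1% of non-control spots were well above background. All 11 proximal tubule markers were well above background on the kidney arrays, all 8 hepatocyte markers on the liver arrays and all 7 neuron and glia markers on the brain arrays. Many were also detected elsewhere, such as 6 of the 7 neuron and glia markers on both liver arrays. On the control arrays of kidney, liver and brain the summed linear levels were 1808, 577 and 1.72 for proximal tubule. They were 235, 7149 and 73.4 for hepatocyte markers and 26.2, 9.97 and 303 for neuron and glia markers. Of the 18 member probes 13 were well above background on all 8 arrays, 2 on the 3 kidney arrays only, 1 on a single array and 2 on none, and each gene had at least 1 probe measured on all 8. Where a gene had several probes, the one that was brightest on average across all arrays is reported.

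The sequences below show what the array read for the carriers Slc5a3 and Slc6a6 and for the enzyme gene Akr1b3. Those shown for Slc6a6 and Akr1b3 are not the reported probes of these genes. All 3 are 60-base coding-strand probes in mm9 coordinates from the array files, and all 3 were measured on every array. The Slc5a3 probe lies at chr16:92079366-92079425 on the plus strand and is the reported probe of the gene. The Slc6a6 probe reaches from chr6:91699793 to chr6:91700295 on the plus strand, so its 60 bases span 503 bases of genome and cross at least 1 exon junction. The Akr1b3 probe lies at chr6:34260573-34260632 on the minus strand.
Slc5a3: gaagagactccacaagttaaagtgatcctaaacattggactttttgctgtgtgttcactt
Slc6a6: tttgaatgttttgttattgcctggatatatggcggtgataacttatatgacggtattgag
Akr1b3: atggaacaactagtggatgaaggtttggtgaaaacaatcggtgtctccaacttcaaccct

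The start-site windows of Slc6a12 and Slc5a3 are shown because these carrier genes had the larger kidney differences among the members whose probes all pointed the same way. Both are RefSeq sequence in GRCm38.p6, the 250 bases before an annotated start, on the plus strand. In the Slc6a12 window, chr6:121342324-121342573, the capitals mark a match to the tonicity enhancer consensus, the element that NFAT5 binds. It runs from 75 to 65 bases upstream of the start. In the Slc5a3 window, chr16:92058072-92058321, the capitals mark the 236 bases that also lie in the window of Mrps6, a mitochondrial ribosomal protein gene whose start is 14 bases downstream.
Slc6a12: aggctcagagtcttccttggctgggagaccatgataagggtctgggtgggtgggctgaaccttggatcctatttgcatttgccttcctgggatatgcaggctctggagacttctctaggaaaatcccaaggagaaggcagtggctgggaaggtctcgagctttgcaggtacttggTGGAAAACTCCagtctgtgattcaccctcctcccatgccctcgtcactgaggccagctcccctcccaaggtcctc
Slc5a3: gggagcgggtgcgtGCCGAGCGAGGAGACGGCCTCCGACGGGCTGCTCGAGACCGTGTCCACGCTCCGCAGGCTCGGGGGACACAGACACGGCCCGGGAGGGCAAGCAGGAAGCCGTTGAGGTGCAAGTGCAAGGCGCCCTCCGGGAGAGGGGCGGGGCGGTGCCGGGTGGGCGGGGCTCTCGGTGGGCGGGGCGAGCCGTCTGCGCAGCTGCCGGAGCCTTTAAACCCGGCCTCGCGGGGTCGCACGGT

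The tonicity enhancer consensus and its core TGGAAA were searched on both strands of the 300-base RefSeq windows, which run from 250 bases before to 50 bases after each start. The core, which is part of the consensus, was in 1 of the 5 windows of Slc6a12 and in no window of Slc5a3, Mrps6 or Nfat5. Over all 32851 windows 21.4% held the core and 4.96% held the consensus. These are matches of letters in short windows and no measure of binding. Slc6a6, Akr1b3 and Slc14a2 were not searched.

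Slc5a3, the sodium-coupled carrier that brings myo-inositol into cells, had kidney levels of 1.25 in the control, 1.71 at low dose and 1.77 at high dose. Its brain levels were -0.83 in the control, -0.81 at low dose and -0.67 at high dose, and its liver levels were -1.48 in the control and -1.46 at high dose. Every kidney array was above every brain array, and every brain array above both liver arrays. Within kidney, both exposed arrays stood above the control and close to each other. The low-dose difference from the control was 0.46 with an array error of 0.20, or 1.38-fold, and the high-dose difference was 0.52 with an array error of 0.20, or 1.44-fold. A second Slc5a3 probe, at chr16:92087281-92087340, gave 0.49 at low dose and 0.59 at high dose, so both probes of the gene placed both exposed kidneys above the control.

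Mrps6, whose annotated start adjoins that of Slc5a3, had kidney levels of 3.79 in the control, 4.11 at low dose and 4.15 at high dose. Its brain levels ran from 2.03 to 2.20 and its liver levels were 2.14 and 2.10. Mrps6 therefore showed the same order of kidney arrays, with differences of 0.32 and 0.36, but not the brain-over-liver order of Slc5a3.

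Slc6a12, the carrier for betaine and GABA, was read by 1 probe, at chr6:121315541-121315600 of mm9. Its kidney levels were -2.36 in the control, -1.42 at low dose and -1.48 at high dose. Its brain levels were -2.38, -3.15 and -2.57 in the same order, and its liver levels were 4.18 in the control and 4.10 at high dose. Liver, which is known to take up betaine, thus lay far above the other tissues, and the control kidney was at the level of the control brain. Both exposed kidneys were above the control kidney, by 0.93 with an array error of 0.21 at low dose, or 1.91-fold, and by 0.88 with an array error of 0.21 at high dose, or 1.84-fold. The kidney signals behind these levels were 142 in the control, 277 at low dose and 281 at high dose in scanner units, so the gene was dim in kidney on every array. With normexp background correction and quantile normalization together these differences were 0.69 and 0.64.

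Slc6a6, the taurine carrier, had kidney levels of 3.35 in the control, 3.28 at low dose and 3.18 at high dose. Its liver levels were 2.54 in the control and 2.51 at high dose, and its brain levels were 1.66, 1.70 and 1.63 in the control, low and high dose. Kidney was above liver and liver above brain on every array. The kidney differences from the control were -0.08 at low dose and -0.17 at high dose, both smaller than the array error of 0.20. The junction-crossing probe printed above had kidney levels of -0.14, -0.23 and -0.54 in the control, low and high dose, and its high-dose difference of -0.40 was larger than its array error of 0.21. The remaining Slc6a6 probe was well above background on the high-dose liver array alone.

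Akr1b3, the mouse aldose reductase gene, had kidney levels of 3.89 in the control, 4.16 at low dose and 3.93 at high dose. Its brain levels were 2.03, 1.98 and 1.99, and its liver levels were 0.79 in the control and 0.67 at high dose. Kidney was above brain and brain above liver on every array. In kidney the low-dose array was the highest, by 0.27 with an array error of 0.20 over the control, and the high-dose array was 0.04 above the control. The probe printed above for this gene had the same order of kidney levels, 0.92, 1.16 and 1.08, with differences of 0.24 and 0.16 at an array error of 0.20. Neither probe separated the high-dose kidney from the control by more than its array error.

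**Figure D1:**
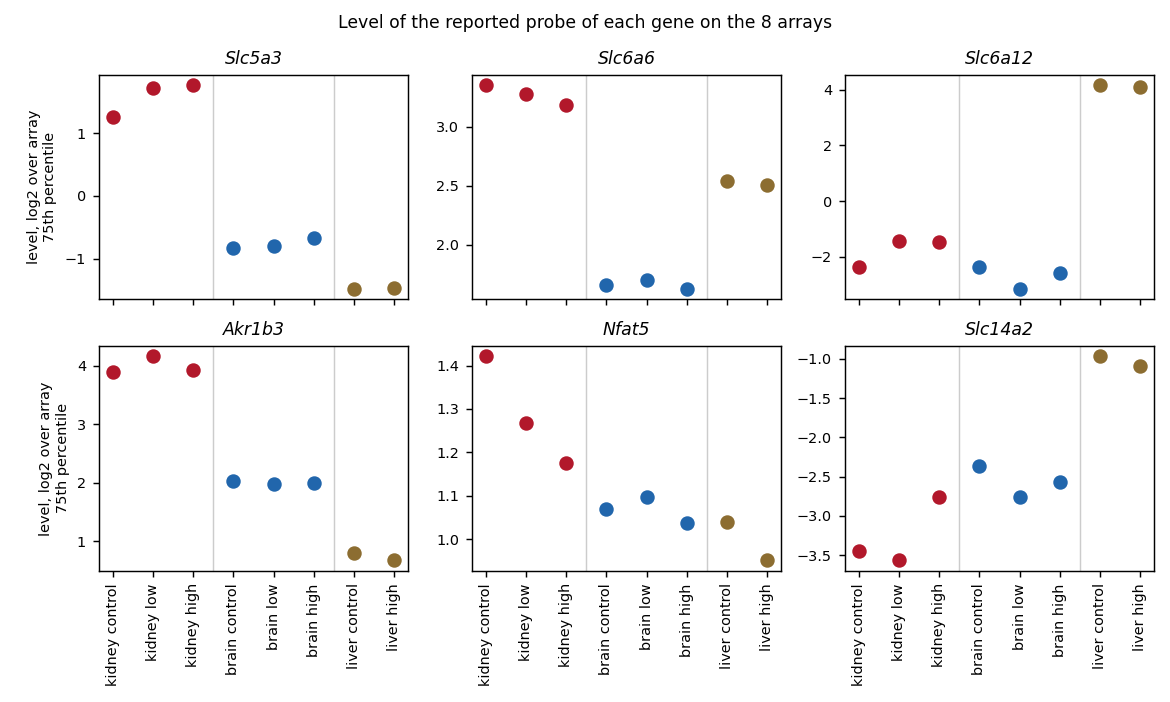
Level of the reported probe of each of the 6 genes on each of the 8 arrays, as log2 of the processed signal over the array's 75th percentile; each point is 1 array, red for kidney, blue for brain and ochre for liver, and each panel has its own vertical axis. Slc5a3 and Akr1b3 were highest in kidney, Slc6a12 was at 4.18 and 4.10 in liver against at most -1.42 elsewhere, and the Nfat5 axis covers less than 1 log2 unit.

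Nfat5, which binds the tonicity enhancer of such genes, had the flattest profile of the 6, with an SD of 0.14 over the 8 arrays. The reported probe, at chr8:109853148-109853207 of mm9, had kidney levels of 1.42 in the control, 1.27 at low dose and 1.18 at high dose. Its brain levels were 1.07, 1.10 and 1.04, and its liver levels were 1.04 in the control and 0.95 at high dose. The 3 kidney arrays were above the other 5, but the lowest of them, at 1.18, was within the array error of 0.20 of the highest brain array, at 1.10. The kidney differences were -0.15 at low dose and -0.25 at high dose. Over the other 4 Nfat5 probes measured on all arrays the kidney differences lay between -0.14 and 0.10 at low dose and between -0.20 and 0.19 at high dose, and the 5 probes did not share a direction. The array reads transcript amount and not the nuclear entry or activity of the protein, which tonicity is known to regulate.

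Slc14a2, which makes several urea transporters of different length, was read by 4 probes along chromosome 18, where it lies on the minus strand. The reported probe, second in transcript order at chr18:78379981-78380040 of mm9, had kidney levels of -3.45 in the control, -3.57 at low dose and -2.76 at high dose. Its brain levels were -2.36, -2.76 and -2.57, and its liver levels were -0.97 in the control and -1.09 at high dose. This probe was therefore highest in liver and lowest in kidney, against the kidney expression for which the gene is known. It is the reported probe because its mean over the 8 arrays was the highest of the 4.

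The probe nearest the 3′ end, at chr18:78342911-78342970, read otherwise. Its kidney levels were -1.11 in the control, 0.33 at low dose and -0.14 at high dose, and it was not well above background on any brain or liver array. Its kidney mean was at least 27.6-fold above brain and at least 12.9-fold above liver, against the lowest signal among measured probes of those arrays or the probe's own, whichever was higher. The next probe toward the 5′ end, at chr18:78352254-78352313, had kidney levels of -4.03, -3.33 and -3.38 and was likewise not well above background elsewhere, with bounds of at least 2.85-fold over brain and 1.33-fold over liver. The probe nearest the 5′ end was not well above background on any array.

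In kidney the 3 measured Slc14a2 probes disagreed at low dose and pointed the same way at high dose. The 3′ probe was 1.44 above the control at low dose with an array error of 0.21, or 2.70-fold, and 0.97 above it at high dose, or 1.96-fold. The probe next to it was 0.70 above the control at low dose with an array error of 0.32, and 0.66 at high dose. The reported probe was -0.12 from the control at low dose with an array error of 0.30, and 0.68 above it at high dose. According to the array annotation the reported and the 5′ probe stand for 1 transcript variant of the gene and the other pair for another.

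**Figure D2:**
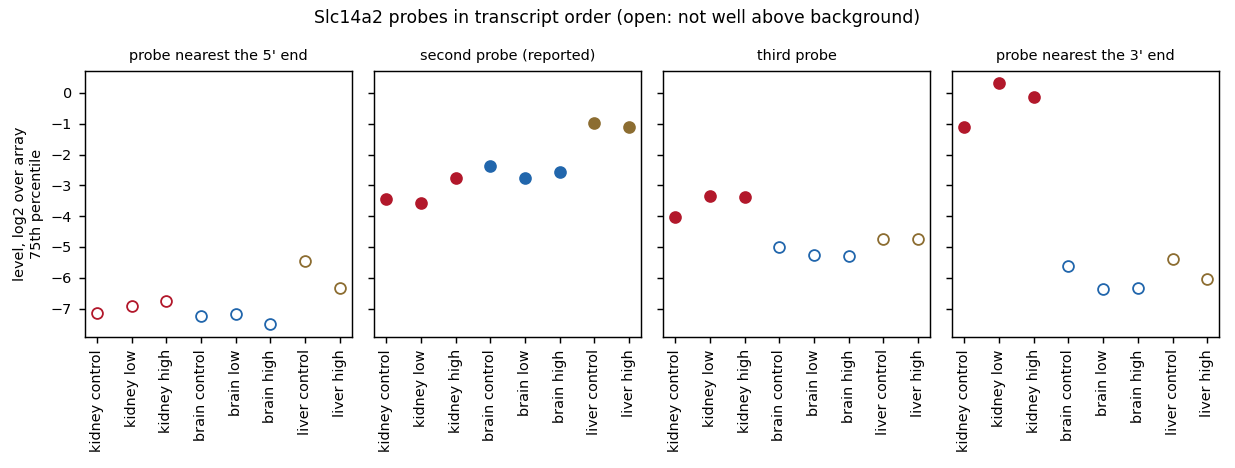
Level of the 4 Slc14a2 probes on each array, in transcript order from the 5′ end on the left to the 3′ end on the right, as log2 over the array's 75th percentile; filled points are well above background and open points are not. The reported probe was highest in liver, at -0.97 and -1.09, while the 3′ probe was measured in kidney only, at -1.11, 0.33 and -0.14.

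With 1 array in each group the kidney comparisons have no replicate check and no p-value, and all exposed arrays were set against the same control array. By a strict rule, a difference of at least 1 on the log2 scale and more than 3 array errors with both arrays well above background and not saturated, no member passed on its reported probe in the low-dose kidney, where 0.22% of the 20949 genes measured passed upward and 0.272% downward. By a smaller description rule, a difference of at least 0.25 with the same flags, 3 of the 6 members were higher at low dose and 0 were lower, where 6.81% of genes were higher and 9.24% lower. The 3 were Slc6a12, Slc5a3 and Akr1b3. The median difference of the 6 was 0.10, beside -0.01 over all genes measured. Because the list was proposed from this contrast, nothing is read from these shares.

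How Slc14a2 was read decided part of this summary. When each member was taken by its brightest probe in kidney, a choice made after the values were seen, Slc14a2 was represented by its 3′ probe, 1 member passed the strict rule upward at low dose and the median of the 6 became 0.37. With the mean of all measured probes of each gene the median was 0.36. Among single probes 0.223% of the 31356 measured passed the strict rule upward in this comparison.

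At high dose no member passed the strict rule in kidney, where 1.12% of the 21354 genes measured passed upward and 0.539% downward. By the smaller rule 3 of the 6 were higher and 0 lower, beside 11.5% and 14.8% of genes. These 3 were Slc6a12, Slc14a2 and Slc5a3. The median of the 6 was 0.28, beside -0.03 over all genes. The comparison shares its control array with the low-dose one from which the list was proposed. Nothing is therefore read from these shares or this median either. A stricter filter on dim probes left 4 members, without Slc6a12 and Slc14a2, and turned the median to -0.07.

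**Figure D3:**
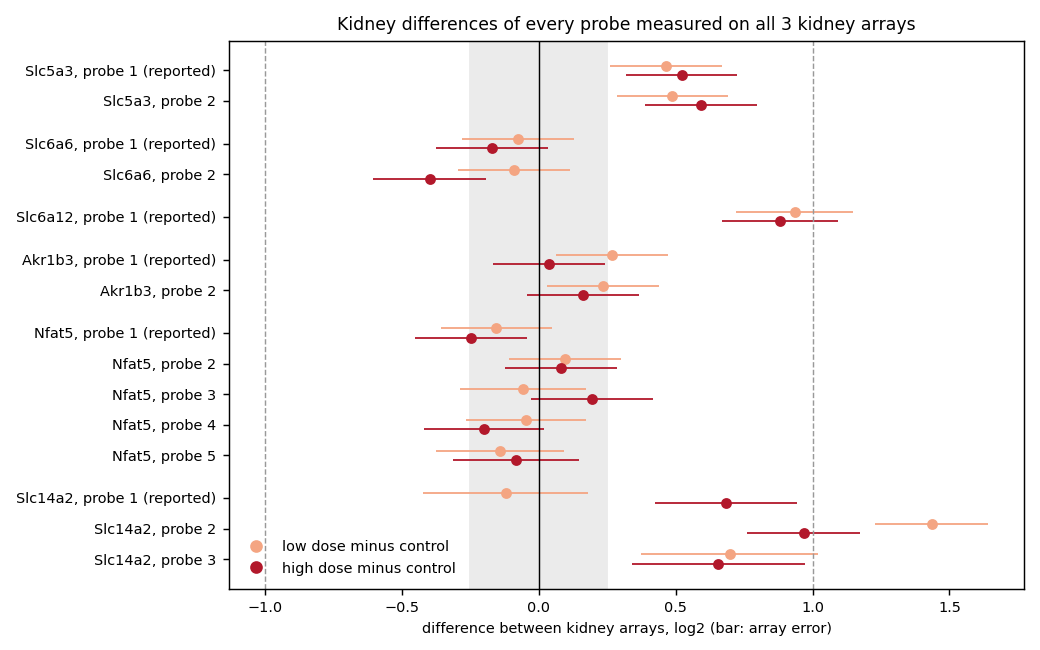
Difference from the control kidney for each member probe measured on all 3 kidney arrays, in log2 units; orange is low dose, red is high dose, bars are 1 array error to each side, the grey band is the span within 0.25 and the dashed lines are at 1 and -1. Both Slc5a3 probes and the Slc6a12 probe lie to the right of the band at both doses, the Nfat5 probes lie within it, and only the 3′ probe of Slc14a2, named probe 2 on the axis, passes the dashed line, at 1.44 at low dose.

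Between the exposed kidneys most members were close. High dose minus low dose was 0.06 for Slc5a3, -0.05 for Slc6a12, -0.10 for Slc6a6, -0.09 for Nfat5 and -0.23 for Akr1b3. No member passed the strict rule, by which 0.842% of genes were higher and 0.239% lower. By the smaller rule 1 member was higher and 0 lower, beside 8.85% and 9.19% of genes. That member was Slc14a2 on its reported probe, at 0.80, whereas its 3′ probe was at -0.47.

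The position of the arrays on the slide moved with exposure in kidney. The control kidney was in slide row 1 and both exposed kidneys were in slide row 2, so row and exposure cannot be told apart for any member's difference from the control kidney. The difference between the exposed kidneys lies within 1 row. The 3 brain arrays were all in row 1 and both liver arrays in row 2.

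Markers of other cells also moved with the kidney arrays. Of 8 urothelium markers 3 were measured on both the control and the low-dose kidney, with a median difference of 1.13, and the same 3 had a median of 1.03 at high dose. They were the uroplakin genes Upk1a, at 1.13 and 0.82, and Upk3a, at 2.47 and 2.29, and the keratin gene Krt5, at 1.04 and 1.03, and all but the high-dose value of Upk1a passed the strict rule. The summed linear level over all 8 was 0.66 in the control kidney, 1.83 at low dose and 1.85 at high dose. Upk1b and Upk2 were not well above background in the control but were on both exposed arrays, and Upk3b was not on any of the 3. Both exposed kidneys were thus above the control, as for Slc5a3 and Slc6a12, and the part of urothelium in the differences of those genes was not tested.

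Adrenal markers went the other way, with a summed level over 10 genes of 5.80 in the control, 1.25 at low dose and 1.23 at high dose. The steroid hydroxylase gene Cyp21a1, at -3.70 and -3.41, and the cholesterol carrier gene Star, at -2.79 and -2.76, passed the strict rule at both doses, and the chromaffin granule gene Chga passed it at high dose, at -2.69. Adipocyte markers had a median of -0.31 over 6 genes at low dose and -0.80 over 7 at high dose, with 3 and 6 lower by the smaller rule and 0 higher. Cidea, a lipid droplet gene, was lower by the strict rule at low dose, at -2.11, and 1.22 higher between the doses, and the brown fat gene Ucp1 was lower at high dose, at -1.42. In RNA from tissue pieces, fewer cells of a type and less RNA per cell cannot be told apart.

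Hepatocyte markers are set beside Slc6a12, since its levels were by far highest in liver. Over 6 measured genes their median was -0.11 in the low-dose kidney, where Slc6a12 was at 0.93, and 0.85 in the high-dose kidney, where Slc6a12 was at 0.88. At high dose Serpina1a, at 3.28, Ahsg, at 1.38, and Alb, at 1.22, all genes of plasma proteins, passed the strict rule, and each also passed it between the doses, at 2.98, 1.52 and 1.32, where Slc6a12 differed by -0.05. Of the 6 measured genes 5 were above the control at high dose. The other, Cyp2e1, was at -0.69 on its reported probe and -0.82 on its second probe. The summed linear level of all 8 hepatocyte markers went down, from 235 in the control kidney to 209 at low dose and 180 at high dose. That sum was mostly Cyp2e1, whose reported probe had levels of 7.77, 7.59 and 7.07 in the same order. Serpina1a, the next brightest at high dose, went from 1.48 in the control to 4.77 there. The fall of the sum therefore does not describe the other markers. The part of hepatocyte markers in the Slc6a12 value at high dose was not tested. The remaining lists had no gene past the strict rule in kidney, with medians at low and high dose of -0.06 and -0.12 for the distal convoluted tubule, -0.07 and -0.09 for podocytes, 0.11 and -0.04 for endothelium and 0.16 and 0.03 for neurons and glia.

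Inner medulla and papilla markers were above the control in their median. Of 10 markers 9 were measured, with a median of 0.26 at low dose and 0.42 at high dose. By the smaller rule 5 were higher at low dose and 6 at high dose, with 0 lower at either, beside 6.81% of all genes higher and 9.24% lower at low dose and 11.5% and 14.8% at high dose. At high dose the membrane transporter gene Slc4a11, at 1.42, and the small heat shock protein gene Cryab, at 1.41, passed the strict rule, and Slc4a11 also passed it between the doses, at 1.02. The water channel gene Aqp4 was at 0.19 and -0.24, Aqp3 at 0.01 and 0.03 and the keratin gene Krt7 at -0.06 and 0.03. At low dose the differences were 0.48 for Cryab, 0.40 for Slc4a11 and 0.37 for Fxyd4, a sodium pump regulator. The other urea transporter gene, Slc14a1, was 0.26 above the control at low dose and 0.42 at high dose on its reported probe. Its second probe gave 0.23 at low dose and -0.105 at high dose, so the probes did not share a direction at high dose. The summed level of the 10 markers was 35.1 in the control, 42.0 at low dose and 54.8 at high dose, and Cryab, which is also in the list of NFAT5 targets, went from a level of 2.78 in the control to 4.19 at high dose. The part of the medullary share of the piece in the differences of Slc5a3, Slc6a12 and Slc14a2 was not tested.

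The collecting duct list moved less. Its 12 markers were all measured in kidney, with a median of 0.07 at low dose and 0.16 at high dose. Above the control were 9 at low dose and 11 at high dose. By the smaller rule 3 were higher at low dose and 4 at high dose, beside 6.81% and 11.5% of all genes. By that rule 0 were lower, beside 9.24% and 14.8%. Fxyd4 was at 0.37 and 0.61 and Slc4a1 at 0.24 and 0.40. The water channel genes Aqp2, at 0.06 and 0.05, and Aqp3 were within array error of the control at both doses. Fxyd4 and Aqp3 are also in the inner medulla list. The transcription factor gene Elf5 passed the strict rule at high dose, at 1.33. Thick ascending limb markers had medians of 0.08 and 0.30 over 7 genes, with 0 and 4 higher by the smaller rule and 0 lower. Proximal tubule markers had medians of -0.02 and -0.16 over 11 genes, with 0 higher and 1 and 2 lower. Among the latter the organic anion carrier gene Slc22a7 was lower by the strict rule at high dose, at -1.86, and between the doses, at -1.38.

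**Figure D4:**
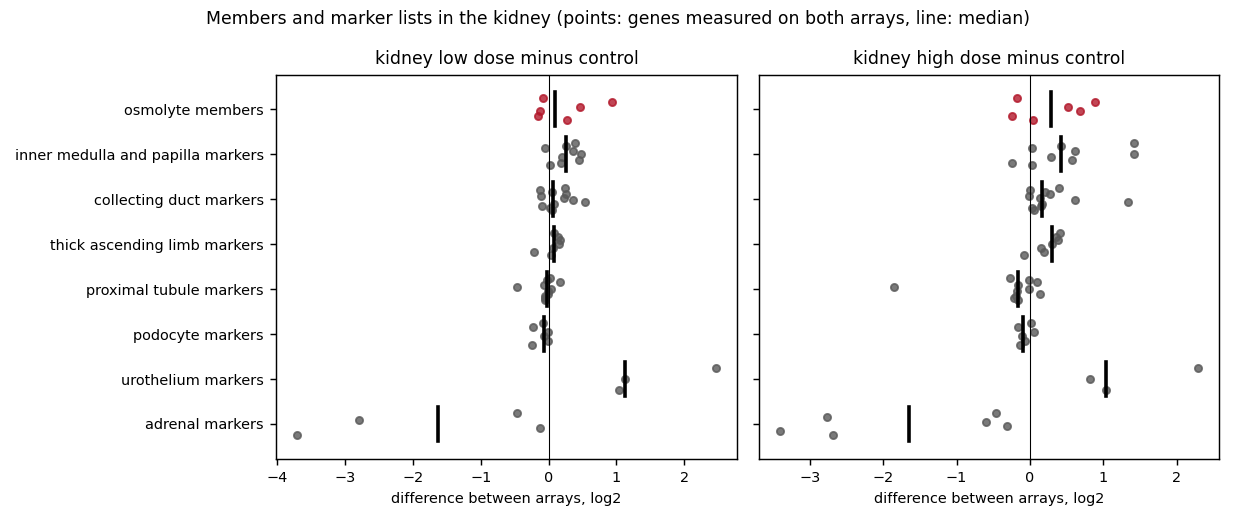
Difference from the control kidney for the 6 members and for marker lists of kidney and neighbouring tissue, low dose on the left and high dose on the right, in log2 units; each point is 1 gene measured on both arrays and each line is the list's median. The median of the inner medulla and papilla list was 0.26 and 0.42, that of the urothelium list 1.13 and 1.03, and that of the adrenal list -1.63 and -1.65.

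Other targets of NFAT5 and osmoprotective genes were not of 1 kind. All 11 were measured in kidney, with a median of 0.22 at low dose and 0.05 at high dose. At low dose 5 were higher by the smaller rule and 0 lower, beside 6.81% and 9.24% of all genes, with Hspa1a at 0.48, Cryab at 0.48, Hspa1b at 0.45 and Hspb1 at 0.41. The inducible HSP70 genes Hspa1a and Hspa1b were back at -0.18 and -0.07 at high dose. At high dose 4 were higher and 1 lower, beside 11.5% and 14.8% of all genes. There Cryab, at 1.41, passed the strict rule, Hspb1 was at 0.69 and the amino acid carrier gene Slc38a2 was at 0.48, while Pnpla6, the gene of a phospholipase that makes glycerophosphocholine, was at -0.38. The other 4 genes of the NFAT family, Nfatc1 to Nfatc4, had low-dose differences between -0.27 and -0.03 and high-dose differences between -0.23 and 0.01, and none passed the strict rule.

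Genes that make or break down the same solutes are given list by list. Over all genes 0.22% passed the strict rule upward and 0.272% downward at low dose, and 1.12% and 0.539% at high dose. Beside these shares, counts of 0 in lists this short say little. In inositol handling 0 of 7 genes passed the strict rule at either dose, and the largest differences were those of the inositol monophosphatase gene Impa2, at 0.29 and 0.44, and of Mrps6. In the sorbitol and polyol pathway Akr1b7, an aldo-keto reductase gene, was lower by the strict rule at high dose, at -1.16, after -0.82 at low dose, and Akr1b8 was at 0.01 and 0.69. Akr1b7 is also known as an adrenal cortex gene, and the adrenal markers given above were lower on the same arrays. The part of adrenal tissue in the Akr1b7 difference was not tested. The sorbitol dehydrogenase gene Sord was at 0.06 and -0.08.

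In betaine handling 0 of 6 genes passed the strict rule against the control. The shares over all genes given above also apply to the lists here, where counts of 0 say little. Bhmt, the betaine-homocysteine methyltransferase gene, was at -0.27 at low dose and 0.77 at high dose, and passed the rule between the doses, at 1.04. In taurine handling 0 of 6 genes passed either rule at either dose, and in glycerophosphocholine handling 0 of 4 passed the strict rule. In urea handling the mitochondrial arginase gene Arg2 passed the strict rule at high dose, at 1.66, after 0.16 at low dose, and it also passed between the doses. In the vasopressin and water list 0 of 11 passed the strict rule, and the largest difference was that of the vasopressin V1a receptor gene Avpr1a, at -0.28 and -0.51.

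The brain and liver arrays show the same members under the same exposure. In brain at low dose no member passed the strict rule, beside 0.441% of genes upward and 0.304% downward. By the smaller rule 0 members were higher and 2 lower, beside 8.36% and 8.97% of genes. The 2 were Slc6a12, at -0.77 with an array error of 0.22, and the reported Slc14a2 probe, at -0.40 with an array error of 0.22. Slc5a3 was at 0.03, Slc6a6 at 0.05, Akr1b3 at -0.05 and Nfat5 at 0.03.

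In brain at high dose no member passed either rule, beside 0.202% and 0.25% of genes by the strict rule and 7.87% and 7.58% by the smaller one. The member differences lay between -0.20 for Slc14a2 and 0.16 for Slc5a3. In liver at high dose no member passed either rule, beside 0.344% and 0.459% of genes by the strict rule and 11% and 12% by the smaller one, and the member differences lay between -0.13 for Slc14a2 and 0.02 for Slc5a3. The betaine carrier, by far brightest in liver, differed there by -0.08 with an array error of 0.20.

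Tissue differences were tested with limma on the log2 levels, with tissue and dose as terms, which uses arrays of different dose as the repeats of a tissue and leaves 3 residual degrees of freedom. The p-values measure the spread between these arrays, which may come from the same or from different mice. All 6 members were among the 17448 genes well above background on all 8 arrays, and p-values were adjusted over all of them by the Benjamini-Hochberg method. Between kidney and brain 6 of the 6 members had an adjusted p below 0.05, 5 higher in kidney and 1 lower, but 80.9% of all genes did, 51.7% higher and 29.1% lower. Between kidney and liver 6 of the 6 did, 4 higher and 2 lower, beside 73.9% of all genes, 27.1% higher and 46.8% lower. Against such backgrounds the counts say little of the members, and the sizes of the differences are given instead.

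Over all genes the median of kidney minus brain was 0.28 and that of kidney minus liver was -0.22, and each member is set against that shift. Slc5a3 was 2.35 higher in kidney than in brain (SE 0.11, limma adjusted p = 3.93e-07), which is 2.06 above the median gene. Akr1b3 was 1.99 higher (SE 0.07, limma adjusted p = 8.43e-08), or 1.71 above the median gene. Slc6a6 was 1.61 higher (SE 0.05, limma adjusted p = 4.86e-08), or 1.33 above the median gene, and its junction probe gave 2.04. For these 3 genes each of the 3 kidney arrays was above each of the 3 brain arrays. They kept their direction and their call under every alternative run.

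The other members were less firm against brain. Measured from the median gene, Slc6a12 stood at 0.67 and the reported Slc14a2 probe at -0.98. Slc6a12 was 0.95 higher in kidney (SE 0.28, limma adjusted p = 0.0147), but leaving out the low-dose kidney or the low-dose brain array gave 0.56 with adjusted p of 0.0799 and 0.0782, and leaving out the high-dose kidney array gave 0.83 with an adjusted p of 0.0624. Nfat5 was 0.22 higher (SE 0.06, limma adjusted p = 0.014), which is -0.06 from the median gene, and it turned to -0.08 when arrays were scaled to the 75th percentile of the probes measured on all of them. Its adjusted p over the alternatives ran from 0.000126 to 0.258, and was 0.0724 without the control kidney array and 0.08 without the control brain array. The reported Slc14a2 probe was lower in kidney, at -0.70 (SE 0.18, limma adjusted p = 0.00815), with adjusted p of 0.0566 to 0.0623 under median scaling, under quantile normalization and under normexp correction with quantile normalization, while the 3′ probe was measured in kidney and not in brain.

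Against liver the order of the members was different. Measured from the median gene, the differences were 3.44 for Akr1b3, 3.24 for Slc5a3, 0.95 for Slc6a6 and 0.51 for Nfat5. They were -5.65 for Slc6a12 and -1.89 for the reported Slc14a2 probe. The values that follow are the differences before this shift is taken off. Akr1b3 was 3.23 higher in kidney (SE 0.08, limma adjusted p = 4.09e-08) and Slc5a3 was 3.02 higher (SE 0.13, limma adjusted p = 5.78e-07), or 8.13-fold. Slc6a6 was 0.74 higher (SE 0.06, limma adjusted p = 2.12e-05). Slc6a12 had a difference of -5.87 (SE 0.33, limma adjusted p = 2.43e-06), since liver held the betaine carrier at a level far above kidney. Nfat5 was 0.29 higher (SE 0.08, limma adjusted p = 0.00925), with an adjusted p above 0.05 when the control kidney or the control liver array was left out, at 0.054 and 0.055, and of 0.0618 with the mean of measured probes. In a fit over 25302 single probes, added after the values were seen, 2 of the 5 Nfat5 probes had an adjusted p below 0.05 against liver and 2 of the 5 against brain. The share over all probes is not given here, and in the fit by gene 73.9% and 80.9% of genes were called, so nothing is read from this count. The 5 probe differences lay between 0.02 and 0.33 against liver and between -0.07 and 0.33 against brain.

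The high-dose term of the same fit, shared by the 3 tissues, called no gene after adjustment, that is 0% of 17448, while 1180 genes had an unadjusted limma p below 0.05. No member was among those 1180. Slc5a3 had the lowest unadjusted limma p of the members, 0.0698, with a difference of 0.23 (95% interval -0.02 to 0.49), which ran from 0.09 to 0.34 when 1 array at a time was left out, and it was above the control on the high-dose array of each of the 3 tissues, by 0.52 in kidney, 0.16 in brain and 0.02 in liver. The brain and liver values of Slc5a3 were smaller than their array errors of 0.21 and 0.22. Its liver value ran from -0.0027 to 0.0272 over the alternatives, so only the kidney value stood beyond its array error. Slc6a12 had a difference of 0.20 with an interval of -0.45 to 0.86. The adjusted p of the 6 members lay between 0.689 and 0.893.

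Genes with the most similar profile were found by the root mean square distance between centred levels over the 8 arrays, among the same 17448 genes. For Slc5a3 they were Abhd14a, at 0.11, Zbed3 and Ankrd13c, and Mrps6 was farther, at 0.45. For Akr1b3 they were Epb41l4a, at 0.11, a transcript named ENSMUST00000033486 and Tmem159. For Slc6a6 the nearest were Mrps21, at 0.04, Kiz and Psmd10, and for Nfat5 Sppl2b, at 0.04, the transcript BG242006 and Jkamp. The liver-high profile of Slc6a12 was nearest to those of Hsd3b7, at 0.39, Gch1 and Serpina3h. The reported Slc14a2 probe was nearest to Ly6e, at 0.12, Kalrn and Ablim3. No member was among another member's 3 nearest genes.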

How the data were processed

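Gene expression was measured on 8 one-colour Agilent arrays of mouse kidney, brain and liver, 1 array in each group, from 50 ng of RNA labelled with Cy3. The deposited intensity is the processed signal of each spot, detrended across the array per the file headers, which the submitters' processing notes credit to Agilent Feature Extraction 12.0.3.1. A deposited table of values equals the same intensity divided by the 75th percentile of each array, with no further centring, as checked against the scanner files. Signals were divided by the 75th percentile of the non-control spots of the array and taken to log2, and the log2 values of spots of 1 probe were averaged without spots marked as outliers. A difference between 2 arrays was called by the rules given with the results, and its array error comes from the scanner software. Tissue and high-dose differences came from limma 3.58.1 (R 4.3.3, lmFit and eBayes with an intensity trend) over genes well above background on all 8 arrays. The scripts were tested on simulated data.

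Gene names came from the array files, updated through RefSeq accessions for 32994 probes, of which 1535 changed name, and RefSeq start-site windows (GRCm38.p6) gave the promoter sequences. The array files place the probes on mm9. The members, the gene lists and the tests were chosen with earlier results of these data known. From each of the 22 lists the text names genes past the strict rule in a kidney comparison and otherwise at most 4 with the largest differences, and for each member the 3 genes with the most similar profile. A gene among those with the largest differences is not reported here. Genes quoted beside these (Aqp2, Aqp3, Aqp4, Krt7, Sord, Slc14a1, Slc4a1, Pnpla6, Akr1b8, Cyp2e1 and Mrps6) were named after their values were seen. Alternatives changed the scaling, the background correction, the source of values, the probe of a gene, the filter on dim probes, the array error rule, the intensity trend and the arrays in the fit. The number of arrays limits the precision of every value.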

Additional observations from a re-analysis of the deposited data

Results flagged for a closer look

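Slc6a12, the betaine carrier gene, differed from the control in opposite directions at low dose in kidney and in brain. It was 0.93 above the control in kidney and -0.77 from it in brain, a gap of 1.70 on the log2 scale with 1 array on each side, and the difference between the tissues was not tested. The brain signals behind this were 183 in the control and 107 at low dose in scanner units, so the gene was dim there too. Over the alternatives the low-dose difference ran from 0.69 to 0.98 in kidney and from -0.81 to -0.49 in brain. At high dose the values were 0.88 in kidney and -0.19 in brain. The list was selected on the low-dose kidney comparison, and the high-dose kidney value shares its control array. These kidney values, and the gap built on them, are a description only.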

How the results depend on the processing

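Under the alternatives, 226 summary and 724 single-gene values kept direction and side of the threshold, or moved by less than the array error. Of the other values 4 summary and 19 single-gene values moved further, 15 single-gene values lost their call and 7 changed sign. The array error is the scanner software's spot error and not a spread between replicates, which 1 array in each group cannot give. The low-dose kidney median of the members, 0.10, became 0.36 with the mean of measured probes and 0.37 with the brightest kidney probe of each gene, an alternative chosen after seeing the data, which also raised the members past the strict rule from 0 to 1. The high-dose kidney median became -0.068 under the stricter filter on dim probes, which removed Slc6a12 and Slc14a2. Nfat5 reversed to -0.083 between kidney and brain with scaling over probes measured on all arrays. In the high-dose term of limma, in which no member was called, Nfat5 reversed to 0.038 with the mean of measured probes. Leaving out 1 array at a time gave ranges in that term of 0.09 to 0.34 for Slc5a3, -0.22 to 0.52 for Slc6a12, -0.13 to 0.27 for Slc14a2 and -0.11 to 0.0008 for Akr1b3. Without 1 array at a time 5 to 6 of the 6 members were called between kidney and brain and 5 to 6 between kidney and liver, and over all alternatives 4 to 6 and 5 to 6. Where a change follows from which probes or arrays are used, that is by construction, and otherwise the cause was not tested. No paired analysis was possible because each group has 1 array. Signal over background limits Slc6a12 in kidney and brain and the reported Slc14a2 probe most in kidney. In kidney both reported probes were at or below a signal of 281 scanner units on every array. In brain the Slc6a12 probe was at or below 183 on every array.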
